A study of Mus musculus with 12 samples.

Results

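The genes described here are 10 activity-regulated immediate early genes of the mouse: Fos, Fosb, Junb, Egr1, Egr2, Egr4, Npas4, Nr4a1, Arc and Dusp1. They were taken by name, as the probes whose transcript accession belonged to these symbols, a rule that uses no measured value, although results of these data were known when the list was drawn up. All 10 were on the array with 1 probe each, out of 19648 genes that passed the filter on dim probes, and each was well above background on all 12 arrays. The signal is the scanner's background-subtracted brightness, given as log2 after quantile normalization over the 12 arrays, so a difference of 1 is a 2-fold difference. A level of one gene cannot be set against that of another, because probes differ in brightness, so every comparison below is within a gene.

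Immediate early genes are switched on within minutes of synaptic activity, growth factors or stress, without new protein being made first. In neurons, calcium entry and the ERK kinase cascade act on factors already bound at these genes, chiefly CREB and the serum response factor. Most of them encode transcription factors that set off a later round of gene expression, and Arc and Dusp1 act at the synapse and on MAP kinases. Their transcripts turn over fast, and in the brain they are widely used as a record of which neurons were recently active.

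The study set mouse models of Alzheimer's disease beside each other, with 1 array for each of 12 models and RNA of 3 animals pooled in equal parts on each array. 4 arrays held prefrontal cortex of C57BL/6 mice aged 1.5, 4, 17 and 22 months. 3 arrays held hippocampus of transgenic mice labelled C57BL/6, for which the methods name C57BL/6N as control strain: a line with a mutated human NCSTN gene at 10 months, a line with the wild-type human MAPT gene at 12 months, and 5xFAD, a line with mutated human transgenes, at 6 months. 5 arrays held hippocampus of ICR mice, 7 weeks old when treated: aggregated Aβ at 5 µM or 10 µM, or streptozotocin at 2.5 or 3 mg/kg, put into the cerebral ventricle 14 days before dissection, and scopolamine at 1 mg/kg, put into the abdomen 30 minutes before it. All mice had been housed singly, fasted overnight and put under isoflurane, and the time from anaesthesia to dissection is not given in the sources used here. No array of a non-transgenic littermate or of a vehicle injection was analysed here, so each difference is between models. Age and transgene cannot be told apart among the transgenic arrays, and drug, route, delay and age at dissection cannot be told apart for scopolamine. The drivers of the transgenes are not given in the sources used here.

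With 1 pooled array per model there is no replicate error, and no test was run: arrays averaged on 1 side of a comparison are different ages, lines, doses or drugs and not replicates. The errors below are the scanner software's error of a spot, carried into each difference, and leave out the spread between animals. That error was 0.14 to 0.15 log2 units for the members other than Junb, and 0.15 to 0.20 for Junb, whose lowest signal was 3.08-fold over the local background. Fos had 10 spots on each array, and their SD was 0.04 to 0.07 log2 units. In pooled tissue, fewer active cells and less transcript per cell cannot be told apart.

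Before the results, the labels and markers were checked. Xist, a transcript of the inactive X chromosome, was well above background on 3 of 3 transgenic arrays and on 0 of 9 others. The Y-linked Ddx3y and Eif2s3y were well above background on 0 of 3 transgenic arrays and on 9 of 9 others, although the methods call the transgenic mice male. Log2 differences of the transgenic arrays were therefore taken only among them, and where 5xFAD is ranked beside the other sets, sex-linked signals, strain, age or tissue differ too. The summed log2 signal of 9 hippocampal neuron markers was 15.17 to 15.82 on the hippocampal arrays and 13.85 to 14.49 on the cortical ones, and that of 7 cortical neuron markers ran the other way, 11.38 to 12.27 against 13.36 to 13.73. The choroid plexus list split arrays of the same tissue: its summed log2 signal was 8.72 to 9.15 on 3 cortical arrays but 15.62 at 17 months, and 11.65 and 12.39 on the streptozotocin arrays against 16.69 to 17.58 on the other 6 hippocampal ones. On the MAPT array the pituitary list summed to 12.52, against 8.87 to 9.62 on the others.

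The bases before the start sites of Fos, Egr4, Npas4, Nr4a1 and Dusp1 are shown because these are the members at least 2-fold lower in 5xFAD that have an entry in the promoter table. Each run is the 250 bases before the annotated start, 5′ to 3′ on the gene's own strand, from RefSeq's GRCm38.p6 annotation. Capitals mark the core of the cAMP response element bound by CREB, TGACG, read on either strand.
Fos, chr12:85473640-85473889, plus strand: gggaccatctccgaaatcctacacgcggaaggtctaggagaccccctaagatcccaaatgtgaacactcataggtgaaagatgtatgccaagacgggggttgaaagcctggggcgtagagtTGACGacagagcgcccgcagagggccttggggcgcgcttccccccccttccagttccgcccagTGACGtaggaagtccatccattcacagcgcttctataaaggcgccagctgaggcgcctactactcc
Egr4, chr6:85513590-85513839, minus strand: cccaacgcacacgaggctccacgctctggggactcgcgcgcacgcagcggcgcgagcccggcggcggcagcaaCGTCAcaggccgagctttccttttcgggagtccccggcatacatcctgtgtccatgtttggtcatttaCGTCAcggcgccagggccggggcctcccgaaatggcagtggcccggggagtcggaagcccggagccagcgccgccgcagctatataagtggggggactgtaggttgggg
Npas4, chr19:4989972-4990221, minus strand: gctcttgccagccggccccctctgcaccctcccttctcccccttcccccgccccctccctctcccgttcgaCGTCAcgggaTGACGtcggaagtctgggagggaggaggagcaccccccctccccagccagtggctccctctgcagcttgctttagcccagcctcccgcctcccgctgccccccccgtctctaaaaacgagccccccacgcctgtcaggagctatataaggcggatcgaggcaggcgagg
Nr4a1, chr15:101266596-101266845, plus strand: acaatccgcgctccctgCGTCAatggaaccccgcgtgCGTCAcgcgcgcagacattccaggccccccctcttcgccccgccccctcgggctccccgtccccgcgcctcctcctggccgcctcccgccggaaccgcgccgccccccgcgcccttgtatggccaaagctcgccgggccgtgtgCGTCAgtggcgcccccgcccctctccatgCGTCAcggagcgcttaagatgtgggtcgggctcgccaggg
Dusp1, chr17:26508473-26508722, minus strand: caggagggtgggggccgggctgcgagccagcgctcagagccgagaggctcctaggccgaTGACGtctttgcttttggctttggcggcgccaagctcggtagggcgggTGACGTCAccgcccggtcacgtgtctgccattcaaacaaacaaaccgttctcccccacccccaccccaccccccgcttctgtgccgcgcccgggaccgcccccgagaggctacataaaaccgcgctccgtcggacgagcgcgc

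Of the 10 genes, 8 had an entry, and all 8 held TGACG on at least 1 strand in the 250 bases before a start, against 19.8% of 27025 genes in the table. Nr4a1 held 4 copies, at 233, 213, 69 and 40 bases before the start, and 0.137% of all entries held at least 4. Dusp1 held 3, of which a pair overlapped as the full palindrome TGACGTCA at 143 bases, a match found in 1.77% of genes. Fos had copies at 129 and 66 bases and a TATA box, TATAAA, at 33, and Egr4 had copies at 177 and 109. Npas4 had its 2 copies side by side, at 179 and 169 bases. Fosb had 1 copy at 60 bases and Junb 1 at 106, and Egr2 held a pair before 3 of its 5 annotated starts. The CArG box of the serum response factor was found in Egr2 alone, before 4 of its 5 starts, and in 1.62% of genes. The binding letters of the EGR factors, GCGTGGGCG or GCGGGGGCG, were in Fosb at 50 and in Nr4a1 at 60 bases before the start and in 3.47% of genes. The AP-1 site, TGAGTCA or TGACTCA, was in 0 of the 8 and in 5.16% of genes. A match describes letters in this window and not a bound site. TGACG lies within the full palindrome, so those matches overlap.

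**Figure D1:**
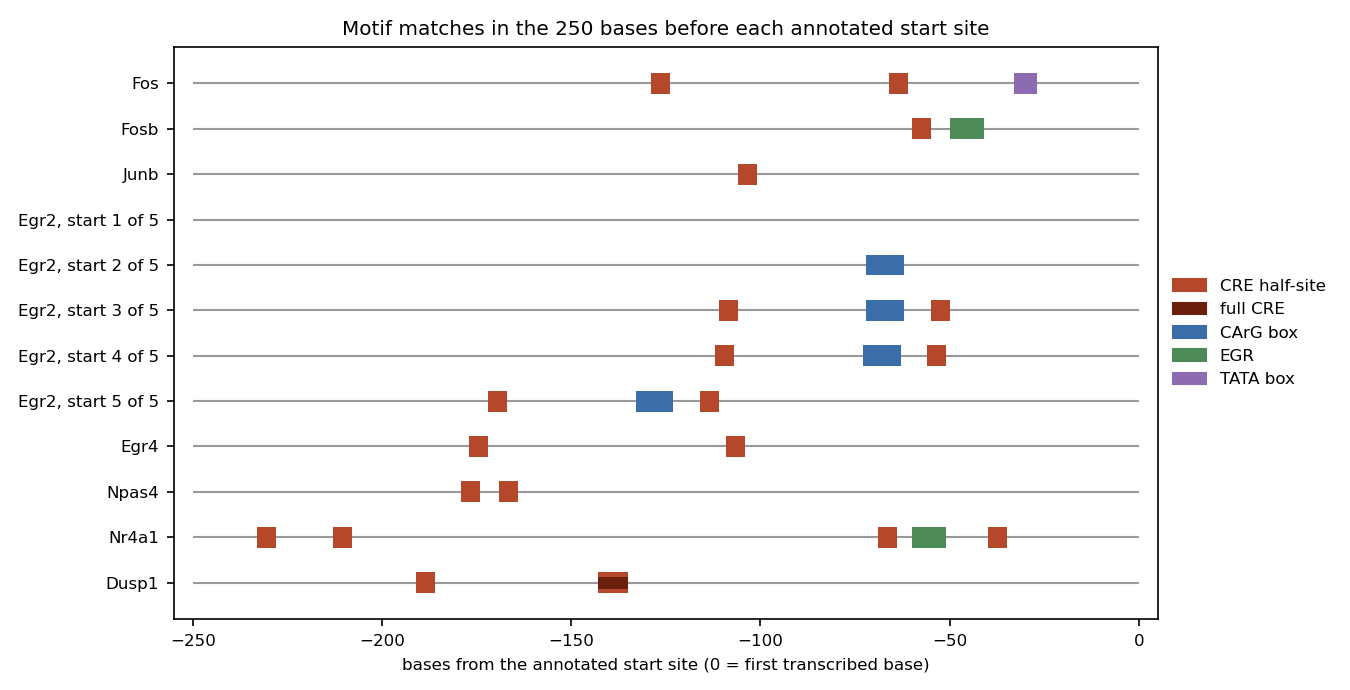
Motif matches in the 250 bases before the annotated start sites of the 8 members in the promoter table, with distance from the start in bases on the x axis and 1 line per start. Red blocks, the core of the cAMP response element, stand on at least 1 row of every gene, with 4 on Nr4a1 and 3 on Dusp1. A CArG box (blue) is drawn before 4 of the 5 starts of Egr2.

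All 10 genes were lower in 5xFAD hippocampus than on both other transgenic arrays. The AP-1 factors pair up as Fos and Jun proteins and bind AP-1 sites, and Fos, the classic marker of recent neuronal firing, had a log2 signal of 9.44 in NCSTN, 9.37 in MAPT and 7.57 in 5xFAD. The 5xFAD value lay 3.56-fold below the mean of the others, a log2 difference of -1.83 ± 0.18 (scanner error). Over the 10 spots of Fos this array's SD was 0.07. The Fos relative Fosb, whose truncated form builds up under repeated activity, read 8.63 in NCSTN, 9.18 in MAPT and 7.96 in 5xFAD, a difference of -0.94. Junb, which dampens the action of Jun, read 6.32, 6.35 and 5.49 in the same order, a difference of -0.85. Of the AP-1 factors, Fos differed most.

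The EGR zinc finger factors bind GC-rich promoters of late response genes. Egr1, a gene tied to long-lasting synaptic strengthening, had log2 signals of 12.64 in NCSTN, 12.72 in MAPT and 11.03 in 5xFAD. It was 3.14-fold lower in 5xFAD, at -1.65 ± 0.18. Egr4 read 11.92 in NCSTN, 12.32 in MAPT and 10.27 in 5xFAD, a 3.62-fold difference. Egr2, known for its part in myelination and also induced in neurons, read 8.38, 8.64 and 7.52, and at -0.99 it stood just short of a 2-fold difference. For each of the EGR genes the NCSTN and MAPT values were nearer to each other than either was to 5xFAD.

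Npas4, a neuron-specific factor induced by calcium entry that adjusts inhibitory synapses, read 10.36 in NCSTN, 10.13 in MAPT and 8.67 in 5xFAD, a difference of -1.57. Nr4a1, an orphan nuclear receptor, read 13.75, 13.91 and 12.22 in that order, a difference of -1.61. In both genes the 5xFAD value was at least 2-fold below each of the others.

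Arc, whose protein moves AMPA receptors away from the synapse and whose mRNA travels into active dendrites, showed the largest difference of the members. Its log2 signal was 13.70 in NCSTN, 13.71 in MAPT and 11.42 in 5xFAD, and it ranked 66 from the lowest of 19648 genes in this comparison. Dusp1, the phosphatase that switches off MAP kinases, read 9.77, 9.55 and 7.99, or 3.17-fold lower in 5xFAD. The NCSTN and MAPT values of Arc differed by 0.01, within the scanner error of 0.20.

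In all, 7 of the 10 genes were at least 2-fold lower in 5xFAD, where 4.7% of all genes were, and 0 were 2-fold higher, where 6.05% of genes were. Among genes well above background on all 3 arrays 4.15% were 2-fold lower. The median over the 10 was -1.63 against -0.05 over all genes. The 5xFAD array was below both others for 10 of 10 members and for 46.3% of all genes. Against NCSTN alone 7 members were 2-fold lower, where 5.44% of genes were. Against MAPT alone 9 were, Fosb and Egr2 joining them, where 4.85% of genes were. Set beside the arrays of all sets, without a test, the 5xFAD signal was the lowest of all 12 for 9 of 10 members, all but Junb, and for 24.2% of genes. NCSTN and MAPT differed little: 0 members reached 2-fold between them, where 2.23% of genes were higher and 1.76% lower in NCSTN, and the largest difference was that of Fosb at -0.55 ± 0.20.

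**Figure D2:**
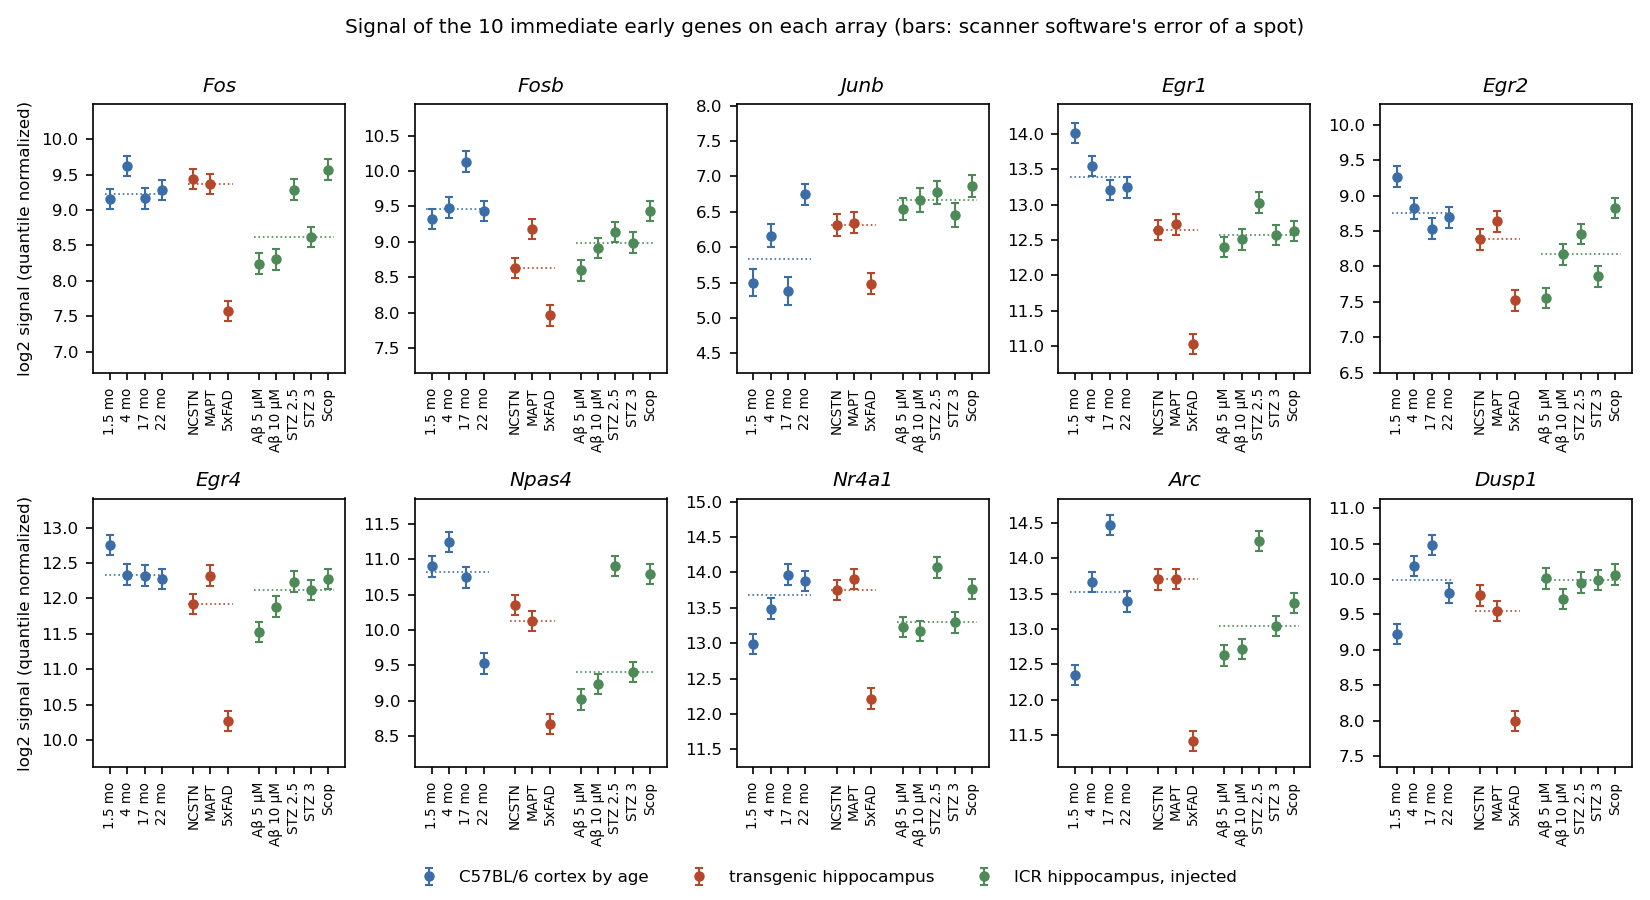
Log2 signal of each gene on each of the 12 arrays, in 3 sets by colour, with bars for the scanner software's error of a spot and dotted lines for the median of a set. Each panel spans the same height in log2 units around its own middle. The 5xFAD point is the lowest of the transgenic set in 10 of 10 panels, and the ICR and cortex points order differently from gene to gene.

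Other cell markers on the 5xFAD array are given beside these values. Microglia markers were at least 2-fold higher for 6 of 8 genes, with a median difference of 1.58 and a summed log2 signal of 16.61 against 14.72 in NCSTN and 14.65 in MAPT. Astrocyte markers had a median of 0.33 with 5 of 6 above 0, and a summed log2 signal of 15.31 against 14.84 in NCSTN and 14.63 in MAPT. Of these Gfap, the filament protein of reactive astrocytes, was 3.47-fold higher and the water channel gene Aqp4 2.28-fold higher. Oligodendrocyte markers had a median of 0.44 and endothelial markers of -0.38, among which the tight junction gene Cldn5 was 2.03-fold lower. General neuron markers had a median of -0.12 with 0 of 8 past 2-fold and a summed log2 signal of 17.78, against 17.84 in NCSTN and 17.94 in MAPT. Hippocampal neuron markers had a median of -0.38, with 6 of 9 below 0, 3 above and 0 past 2-fold. Of the cortical neuron markers 7 of 7 were below 0, where 56% of all genes were, with a median of -0.76. On each of the 3 arrays 8 of 8 general and 7 of 7 cortical neuron markers were well above background. The 5xFAD array had the highest share of probes well above background, 75.8%, against 63.5% to 72.3% on the other arrays of all sets. Their part in the lower immediate early signals was not tested.

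Related gene lists had medians nearer to 0. Of 24 other immediate early transcription factors, 3 were at least 2-fold lower in 5xFAD and 2 were higher, where 4.7% of all genes were lower and 6.05% higher. Below 0 were 17 of the 24, where 56% of all genes were, and the median was -0.34, beside -0.05 over all genes. Ier2 (-1.81), the AP-1 factor Fosl2 (-1.55) and the zinc finger repressor Klf10 (-1.26) were lower. The stress-induced Atf3 was 6.71-fold higher, at 8.25 against 5.50, and the small Maf factor Maff was 3.64-fold higher, so members of this class went both ways on the same array.

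Of 9 dual-specificity phosphatases and ERK feedback genes, most are known as brakes on ERK signalling. At least 2-fold lower were 4 of the 9, where 4.7% of all genes were. Below 0 were 8 of the 9, where 56% of all genes were, with a median of -0.90. Spry4, an inhibitor of receptor signalling to Ras, was 4.41-fold lower, at 4.13 against 6.27. The ERK phosphatase Dusp6, at 11.58 against 12.64, and Dusp5, at 4.01 against 5.27, were lower by 1.07 and 1.26 log2 units. Spred1, another brake on the cascade, was lower by 1.02. Of the 27 synaptic and secreted activity genes measured, 2 were 2-fold lower and 1 was higher. Of all genes 4.7% were lower and 6.05% higher, so these counts were near the background. Below 0 were 19 of the 27, where 56% of all genes were, with a median of -0.39. Rasd1, a small G protein, was 2.33-fold lower and the scaffold gene Homer1 was 2.13-fold lower, whereas the kinase gene Sgk1 was 2.28-fold higher. Between NCSTN and MAPT, 1 gene of this list passed 2-fold, Inhba, higher in NCSTN by 1.96 log2 units, where 2.23% of genes were higher.

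The EGR corepressors Nab1 and Nab2 had a median of -0.35 with 0 of 2 called, and Nab1 differed most, at -0.36. Of 23 measured upstream factors and kinases, among them Creb1, Srf, the ERK kinases and the NMDA receptor genes, 0 reached 2-fold and the median was -0.19. The largest difference in that list was Rps6ka1, a kinase downstream of ERK, at 0.89. Against these lists the 10 genes had the lowest median.

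**Figure D3:**
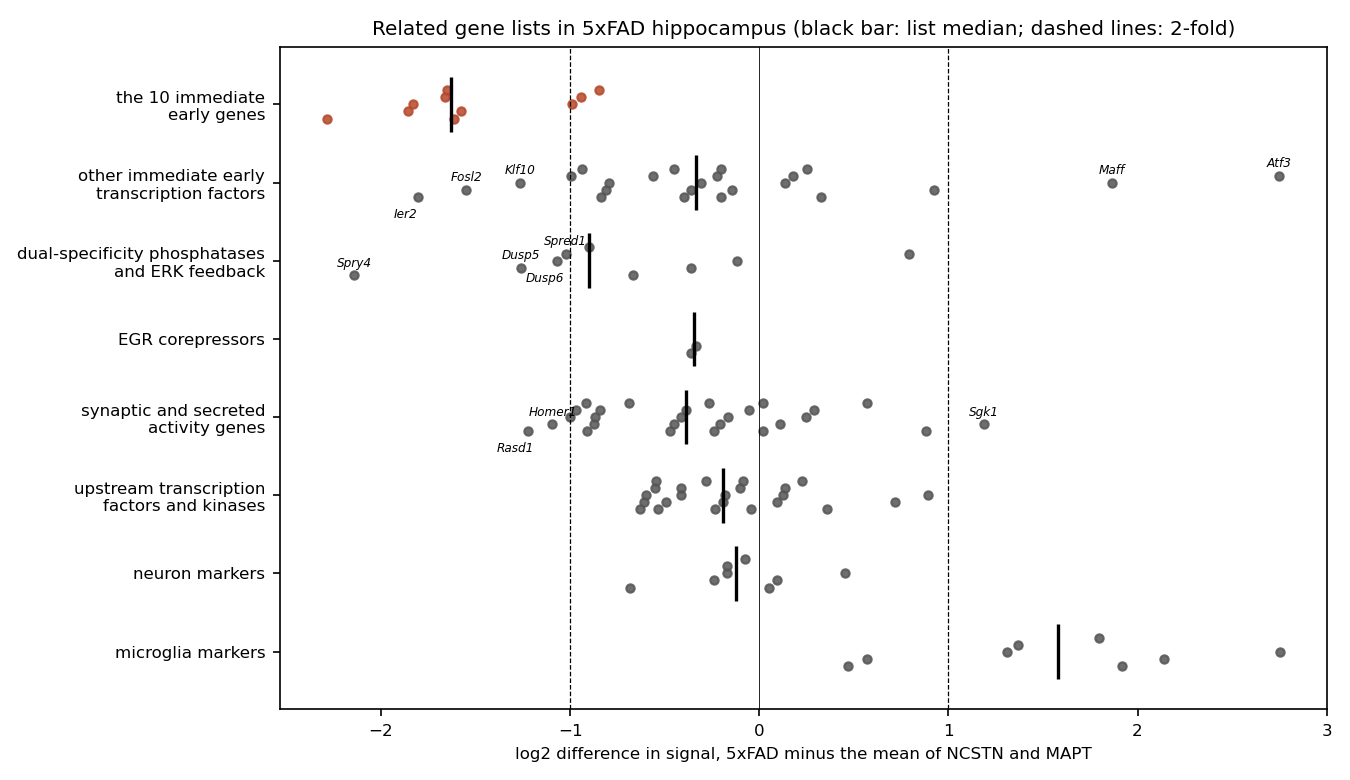
Log2 difference in 5xFAD against the mean of NCSTN and MAPT, 1 point per gene, with a black bar at each list's median and dashed lines at a 2-fold difference. The 10 immediate early genes (red, median -1.63) lie to the left of 0, the ERK feedback list has a median of -0.90, neuron markers lie around 0 (median -0.12) and microglia markers lie to the right (median 1.58).

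Among ICR mice the lowest signal was on an Aβ array for 9 of 10 genes, all but Junb. The highest was on the scopolamine array for 6 genes and on the streptozotocin array of 2.5 mg/kg for the other 4, although Junb and Dusp1 ranged little. How often all genes were lowest or highest on these arrays is not given here, so these counts describe the members only. The values are given in the order Aβ 5 µM, Aβ 10 µM, streptozotocin 2.5 mg/kg, streptozotocin 3 mg/kg and scopolamine. Fos read 8.24, 8.30, 9.29, 8.62 and 9.57. Scopolamine was its highest array and exceeded the mean of the other 4 by 0.96 ± 0.16. Fosb read 8.60, 8.91, 9.14, 8.99 and 9.44, also highest after scopolamine. Junb read 6.54, 6.66, 6.77, 6.46 and 6.87 and spanned 0.41 log2 units in all, so neighbours in its order differed by less than the scanner error.

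Egr2 read 7.55, 8.17, 8.46, 7.86 and 8.83, and its scopolamine array was 1.76-fold above the mean of the others. Egr4 read 11.52, 11.88, 12.24, 12.11 and 12.27, and its upper 3 arrays lay within the scanner error of one another. Egr1 read 12.40, 12.51, 13.03, 12.57 and 12.63, highest with streptozotocin at 2.5 mg/kg. For Egr1 scopolamine did not stand apart, with a difference of 0.00 ± 0.16 from the mean of the others.

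Npas4 had the widest range of the members in these mice. It read 9.02, 9.24, 10.90, 9.40 and 10.79, so that streptozotocin at 2.5 mg/kg and scopolamine formed an upper pair, 0.11 apart, and the other 3 a lower group within 0.38. Arc read 12.63, 12.72, 14.24, 13.05 and 13.37, with streptozotocin at 2.5 mg/kg alone at the top. Nr4a1 read 13.23, 13.18, 14.07, 13.29 and 13.76, in nearly the same order as Arc. Dusp1, at 10.01, 9.72, 9.95, 9.99 and 10.06, spanned 0.34 and had the narrowest range.

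Scopolamine blocks muscarinic acetylcholine receptors and impairs memory. Its array was above the mean of the 4 injected arrays for 10 of 10 genes, where 48.3% of all genes were, with a median of 0.33 against -0.01 over all genes. Only Npas4 passed 2-fold, at 1.15 ± 0.16, where 2.96% of genes were 2-fold higher. Fos, Fosb, Junb, Egr2, Egr4 and Dusp1 were above every injected array, 6 of 10, where 20.7% of genes were. For Egr4, Junb and Dusp1 the smallest gap lay within the scanner error of 0.20 between single arrays. Scopolamine exceeded streptozotocin at 2.5 mg/kg by 0.03 for Egr4 and 0.10 for Junb, and Aβ 5 µM by 0.05 for Dusp1. Scaling to the 75th percentile left 9 of 10 above 0 and the deposited matrix 8 of 10. In that matrix the median over all genes was itself -0.21 and that of the members 0.15. The streptozotocin array of 2.5 mg/kg carried the overlap. Against it alone scopolamine was higher for 6 of 10 genes, a share not given for all genes, with a median of 0.06. There 0 members passed 2-fold, where 5.43% of genes were higher and 3.49% lower. Without that array the median was 0.55 and both Fos and Npas4 passed 2-fold. Without Aβ 5 µM, 0 members passed 2-fold.

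Of the related lists, 22 of 27 synaptic and secreted activity genes were above 0 after scopolamine with a median of 0.16 and 0 past 2-fold, and the other immediate early transcription factors had a median of 0.12. Among these Ier5 was 2.24-fold lower, at 6.07 against 7.23. Choroid plexus markers were past 2-fold higher for 6 of 6 genes against the mean of the injected arrays, with a median of 2.78. That difference lay against the streptozotocin arrays. The summed log2 signal of the list was 17.50 after scopolamine, 17.50 and 17.58 with Aβ, and 11.65 and 12.39 with streptozotocin. Oligodendrocyte markers had a median of 0.45 and cortical neuron markers of -0.33. The part of these cells was not tested.

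The Aβ arrays were below the streptozotocin arrays for 10 of 10 genes, where 56.8% of genes were, with a median of -0.41 against -0.03 over all genes. Npas4 was 2.03-fold lower, the single member past 2-fold, where 1.93% of genes were, and Arc stood at -0.97 and Fos at -0.68. Both Aβ arrays were below both streptozotocin arrays for 7 of 10 genes, all but Junb, Egr2 and Dusp1, where 27.4% of genes were. Several of these gaps lay within the scanner error of 0.20 between single arrays. Streptozotocin at 3 mg/kg exceeded Aβ 10 µM by 0.06 for Egr1, 0.07 for Fosb and 0.16 for Npas4. It exceeded Aβ 5 µM by 0.07 for Nr4a1. Scaling to the 75th percentile, or a stricter filter, left 9 of 10 below 0. Without the streptozotocin array of 2.5 mg/kg the median was -0.18 and 0 members passed 2-fold, and without that of 3 mg/kg it was -0.58 and 3 did. Among related genes, Ier5 was 2.47-fold and Maff 2.29-fold higher with Aβ, and the median of the other immediate early transcription factors was 0.00.

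The choroid plexus split between the same arrays: 6 of 6 markers were past 2-fold higher with Aβ, with a median of 5.60, and transthyretin, Ttr, is the best known of them. Cortical neuron markers had a median of -0.59 with Aβ, and the general neuron markers summed to 17.61 and 17.67 with Aβ and to 17.77 and 17.79 with streptozotocin. The part of these cells in the difference was not tested.

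Between doses, the streptozotocin arrays differed and the Aβ arrays differed less. At 3 mg/kg 9 of 10 genes were below 2.5 mg/kg, where 47.7% of genes were, with a median of -0.53, and Npas4 at -1.50 ± 0.20 and Arc at -1.20 ± 0.20 passed 2-fold, where 2.74% of genes did. Dusp1 was the exception at 0.04. At 10 µM Aβ 8 of 10 genes were above 5 µM, where 54% were, with a median of 0.12 and 0 past 2-fold, where 2.93% of genes were higher and 3.16% lower. Egr2, at 0.62 ± 0.21, differed most between the Aβ arrays. In the deposited matrix 5 of 10 were above and the median was 0.00, beside -0.12 over all genes. Cell markers also differed between doses. With streptozotocin, 7 of 7 cortical neuron markers were below 0 at 3 mg/kg (median -0.26), as were 6 of 6 oligodendrocyte markers (median -0.34) and 7 of 9 hippocampal neuron markers (median -0.41), and general neuron markers had a median of 0.01. With Aβ, 6 of 6 oligodendrocyte markers were below 0 at 10 µM (median -0.82) and 6 of 6 red blood cell genes above (median 0.78). Their part in the dose differences was not tested.

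**Figure D4:**
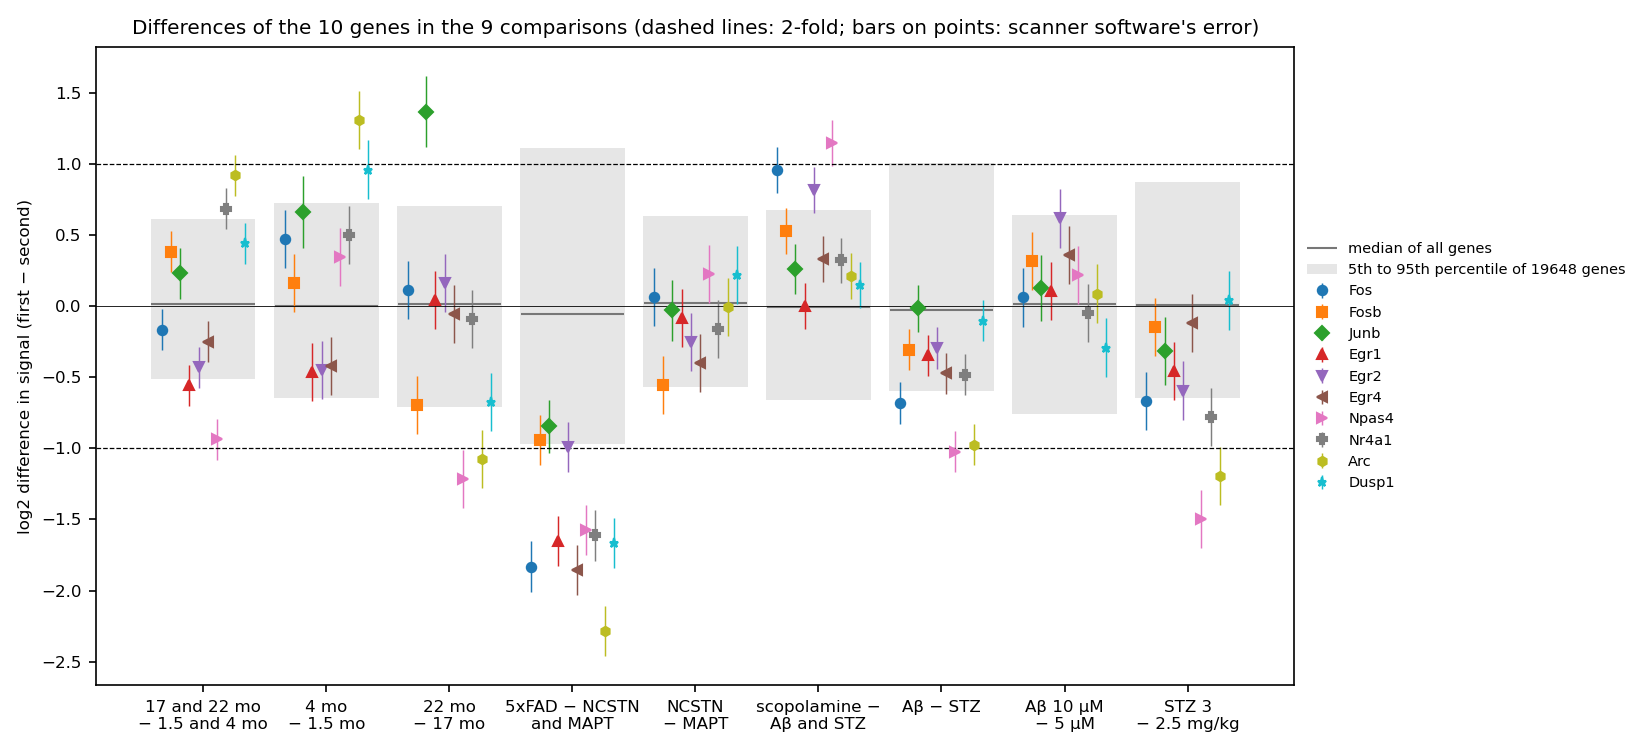
Log2 difference of each of the 10 genes (coloured points, with the scanner software's error) in the 9 comparisons, over grey boxes from the 5th to the 95th percentile of 19648 genes and with dashed lines at 2-fold. In the 5xFAD comparison 7 points lie below the lower dashed line, and in the scopolamine comparison all points lie at or above 0.

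In cortex the genes did not move as one group with age. The values are in the order 1.5, 4, 17 and 22 months. Arc read 12.35, 13.66, 14.47 and 13.39, lowest at 1.5 and highest at 17 months, a range of 4.33-fold. Dusp1 read 9.22, 10.18, 10.48 and 9.80. Nr4a1 read 12.99, 13.49, 13.97 and 13.88. All of these were lowest at 1.5 months and highest at 17. Fosb was high at 17 months only, reading 9.32, 9.48, 10.13 and 9.44. For Nr4a1 both older arrays lay above both younger ones.

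The EGR genes ran the other way. Egr1 read 14.01, 13.55, 13.20 and 13.24. Egr2 read 9.27, 8.82, 8.53 and 8.69. Egr4 read 12.76, 12.34, 12.32 and 12.27. Each was highest at 1.5 months, and the 17 and 22 month arrays differed by less than the scanner error of 0.20 in each. Npas4 read 10.90, 11.25, 10.74 and 9.53, with 22 months alone at the bottom. Fos read 9.15, 9.62, 9.16 and 9.28 and had the narrowest range of the members here. Junb read 5.50, 6.16, 5.38 and 6.75, with no order by age.

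For the older against the younger pair, 5 genes were above 0, where 53.1% of genes were, and 5 below, with a median of 0.03 against 0.01 over all genes, and 0 passed 2-fold, where 1.93% of genes were higher and 1.58% lower. The largest differences were Npas4 at -0.94 ± 0.14 and Arc at 0.92 ± 0.14, in opposite directions. Egr1, Egr2, Egr4 and Npas4 were on both older arrays below both younger ones, where 15.1% of genes were, and Nr4a1 was above, where 20.1% were. Some of these gaps lay within the scanner error of 0.20. Egr4 differed by -0.01 at 17 against 4 months, Egr2 by -0.13 at 22 against 4 and Npas4 by -0.15 at 17 against 1.5. Leaving out any 1 of the 4 arrays brought 1 gene past 2-fold, but not the same gene. It was Npas4, lower, without the 1.5 or the 17 month array, and Arc, higher, without the 4 or the 22 month array. From 1.5 to 4 months 7 of 10 genes were above 0, where 50.9% of genes were, and Arc passed 2-fold, at 1.31 ± 0.20, where 2.94% of genes did. From 17 to 22 months Npas4 at -1.22 and Arc at -1.08 were lower by 2-fold, where 2.74% of genes were, and Junb was higher at 1.37 ± 0.25, where 2.57% were. Scaling to the 75th percentile took Arc to -0.98, and another background correction took Junb to 0.58.

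Among related genes in cortex, Maff was 2.49-fold higher on the older pair and 3.06-fold lower at 22 than at 17 months. Egr3, which belongs to the same zinc finger family, was 2.06-fold and the kinase gene Sik1 2.04-fold lower at 22 months, and Spry2 was 2.22-fold higher. Ccn1, a matrix protein gene, was 2.14-fold higher at 4 than at 1.5 months. The choroid plexus list had a median of 1.88 on the older pair and of -2.19 at 22 against 17 months, and oligodendrocyte markers had a median of 0.92 at 4 against 1.5 months and of 0.65 at 22 against 17, with 6 of 6 above 0 in the latter. Striatal neuron markers had a median of 0.49 at 4 against 1.5 months, where the dopamine receptor gene Drd1 was 2.11-fold higher and Drd2 was well above background at 4 but not at 1.5 months, and Drd2 was 3.04-fold higher at 22 than at 17 months. Red blood cell genes had a median of -0.80 at 22 against 17 months. The part of these cells in the values of Arc, Npas4 and Junb was not tested. General neuron markers had medians from -0.19 to 0.11 over the 9 comparisons.

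The members were also set against each other over the 12 arrays, each gene centred on its mean within cortex, transgenic and ICR arrays. These are descriptions over 12 points that share arrays and normalization. Fos was most like the mean of the other 9, with a Pearson r of 0.953, and ranked 4 of 14009 genes well above background on every array. Nr4a1 (0.885), Egr4 (0.860) and Arc (0.822) followed, and Junb was least like it at 0.448. Without the transgenic arrays, over 9 points, Fos kept 0.899, while Nr4a1 went to 0.693, Arc to 0.630 and Egr4 to 0.518. Egr1 went to 0.229 and Junb to 0.04. Within the 4 cortex arrays r was -0.78 for Egr2, -0.72 for Egr4, -0.68 for Egr1, -0.47 for Junb and -0.05 for Npas4. The other members ran there from 0.27 (Nr4a1) to 0.85 (Dusp1). Within the 5 ICR arrays r ran from 0.31 (Dusp1) to 0.99 (Npas4). 

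Of genes outside the list, Fer, a tyrosine kinase gene, had the highest r with the mean of the 10, at 0.967, then Myo9a (0.950), Ddx51 (0.947), Rtn2 (0.945), Smug1 (0.944), Gfer (0.944), Kti12 (0.942) and Plcxd1 (0.940). Their sizes differed: in 5xFAD Plcxd1 was lower by 1.52 log2 units, Fer by 0.81 and Ddx51 by 0.40. Without the transgenic arrays Fer had an r of 0.976 and the other 7 of 0.805 to 0.894. Ier2 was the first of the companion genes at 0.935, and 2 of the 60 most similar genes were on a companion list. What share of all genes compared were companion genes is not given here.

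**Figure D5:**
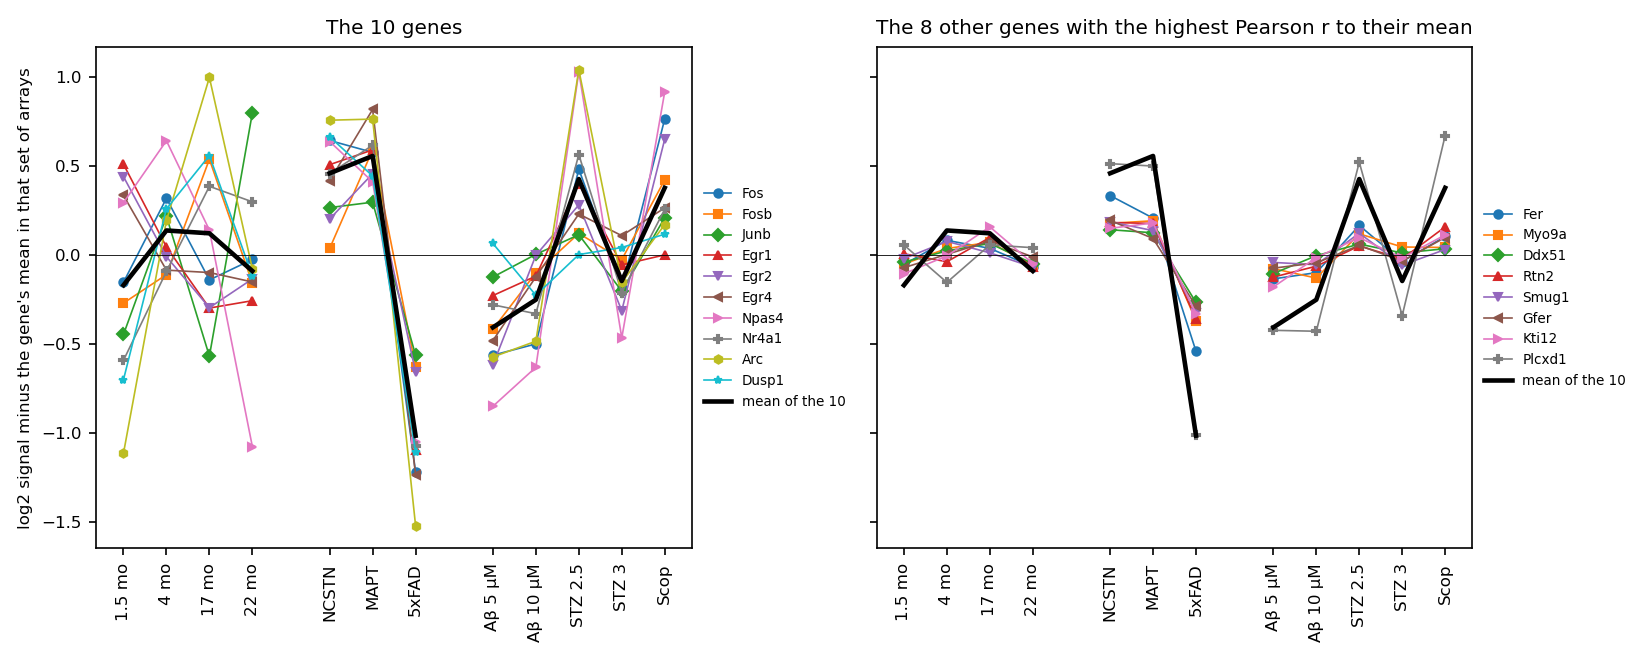
Log2 signal minus the gene's mean within each set of arrays, for the 10 genes (left) and the 8 other genes most like their mean (right), with the mean of the 10 in black and lines drawn to guide the eye. The 10 genes drop together in 5xFAD and cross each other in cortex, and most of the 8 similar genes follow the black line at a smaller height.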

How the data were processed

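Each of the 12 arrays was a one-colour Agilent mouse array of RNA pooled from 3 animals. Per the file headers, the deposited scanner files of the authors hold spot intensity from Agilent's Feature Extraction software, with the local background already subtracted in the processed signal. A table of intensity values the authors had processed themselves was also deposited. It served only as an alternative, since its scaling is not given in the sources used here.

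Spots flagged as outliers (110 to 234 per array) were left out, and no spot was saturated. The log2 processed intensity was averaged over the spots of a probe. Probes at least 1.4-fold over the local background, the authors' filter, here required on all 12 arrays, were kept (36520 of 39429) and quantile normalized. Probes of a gene were averaged, after accessions were matched to RefSeq symbols of GRCm38.p6 (27508 of 39429 probes matched). A 2-fold difference was the threshold, and no test was run, since each model had 1 array. The precision is limited by the number of arrays. Repeated probes had a median SD of 0.05 to 0.06 log2 units within an array.

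Arrays were grouped by the model, dose and age in their labels, and the ages of the transgenic mice and of the ICR mice at treatment came from the study's methods. The members were taken by name and not by value, but they and all gene lists were chosen with earlier results of these data known. Named were the 10 members, companion list genes at least 2-fold different and well above background on the brighter side (with the largest difference where a list had none), and the 8 genes most like the members' mean. Cyr61 is counted as Ccn1, its present name.

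Alternatives were scaling to the 75th percentile, quantile normalization within cortex, transgenic and ICR arrays, normexp correction in limma 3.58.1 (R 4.3.3) with an offset of 50, no filter or a 2-fold filter, the deposited matrix, the brightest probe of a gene, thresholds of 1.5-fold and 3-fold, and leaving out each array of an averaged side. Normexp used the median signal of a spot. The code, in Python 3.11.15 with numpy 2.4.6 and pandas 2.3.3, was tested on simulated data.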

Additional observations from a re-analysis of the deposited data

How the results depend on the processing

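No paired analysis was possible because each model had 1 array and no replicate. For 5xFAD, 7 to 9 of 10 genes were past 2-fold when 1 of the arrays compared with it was left out, with medians of -1.63 to -1.62, and 7 genes and 0 above 0 under every alternative processing, with medians of -1.63 to -1.42. There 10 genes passed 1.5-fold and 6 passed 3-fold. At 1.5-fold the counts elsewhere were 3 for the older against the younger cortex, 3 for 4 against 1.5 months, 5 for 22 against 17 months, 3 for scopolamine, 3 for Aβ against streptozotocin, 1 between Aβ doses and 5 between streptozotocin doses, and at 3-fold each of these was 0. Shares of all genes at 1.5-fold and 3-fold are not given here, so these counts have no background. All genes spread more widely in 5xFAD, with a 5th to 95th percentile of -0.97 to 1.11, against -0.51 to 0.61 for the older against the younger cortex. With the deposited matrix, scopolamine had 0 genes past 2-fold, since Npas4 came to 0.92, and Aβ against streptozotocin had 2, since Arc came to -1.03. Scaling to the 75th percentile also gave 2 there, with Arc at -1.06, and normexp gave 0, with Npas4 at -0.90. For the older against the younger cortex, leaving out 1 array gave 1 gene each time, either Npas4 or Arc, and medians of -0.22 to 0.27. It gave 0 to 2 genes and medians of 0.24 to 0.55 for scopolamine, and 0 to 3 genes and medians of -0.58 to -0.18 for Aβ against streptozotocin. Shares of all genes with an array left out of these comparisons are not given here. The cause of these changes was not tested. Single-gene calls lost were Junb (0.58 with normexp) and Arc (-0.98 with percentile scaling) between 22 and 17 months. Single arrays limit all of these comparisons: the spread between animals was not measured, Junb lay nearest to background, and no control array of the same strain and age was analysed here.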
